A study of Mus musculus with 7 samples.

Results

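The 9 genes *Smad2*, *Smad3*, *Smad4*, *Smad6*, *Smad7*, *Ski*, *Skil*, *Pmepa1* and *Tgfbi* carry the transforming growth factor-β (TGF-β) signal from the receptor into the nucleus, restrain it, or are transcribed in answer to it. They were taken by name, and each matched 1 of the 55487 gene identifiers in the expression data. All 9 had enough counts to be tested. Stranded messenger RNA libraries were made from the thoracic aortas of male C57BL/6 mice aged 7 weeks, 3 *Col3a1*+/G182R and 4 *Col3a1*+/+. Each mouse gave 1 library. *Col3a1*+/G182R mice are heterozygous for a knock-in allele of *Col3a1* in which an arginine replaces a glycine of the type III collagen triple helix, a model of vascular Ehlers-Danlos syndrome. The allele was made in embryonic stem cell clones, its selection cassette was removed with a FLPe deleter transgene that was then bred out, and no treatment is named for the mice of either genotype. The question was how the *Col3a1*+/G182R genotype changes messenger RNA in the aortic wall. Gene-level counts do not tell the mutant allele from the normal one.

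TGF-β is released from a latent complex held in the extracellular matrix and binds a pair of receptor kinases. These phosphorylate SMAD2 and SMAD3, which join SMAD4 and enter the nucleus to bind DNA, whereas bone morphogenetic protein (BMP) receptors use SMAD1, SMAD5 and SMAD9. SMAD6 and SMAD7 are the inhibitory SMADs, and SKI and SKIL (SnoN) are corepressors bound by the SMADs. In people, inherited variants of *SMAD3*, *SMAD2* and *SKI* are known from disorders that include thoracic aortic aneurysm. *Smad7*, *Skil* and *Pmepa1* are themselves target genes of the pathway, so that part of its output acts back on it. SMAD activity is set by phosphorylation, which messenger RNA does not measure.

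*Col3a1*+/G182R libraries held 18820015 to 23953746 counts, and *Col3a1*+/+ libraries 13693861 to 21634680. *Col3a1*+/+ replicate 4 was the shallowest library and lay farthest out on the first principal component of log2 CPM, at 65.6, where the *Col3a1*+/G182R libraries lay at -35.2 to -25.1 and the other *Col3a1*+/+ libraries at -11.2 to 31.2. Smooth muscle markers dominated every library, with a summed level over 10 genes of 24536.7 to 26246.3 TPM in *Col3a1*+/G182R and 18007.9 to 29322.4 TPM in *Col3a1*+/+. Libraries also held fibroblast, endothelial, macrophage and fat markers. In tissue that was not sorted into cell types, fewer cells of a type and less RNA per cell cannot be told apart. TPM (the share of transcripts, scaled for transcript length) is used below for levels between genes, and CPM (the share of counts, after TMM normalization of library size) for differences between genotypes. Nothing in the labels says whether the mice were littermates or were processed together.

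The target genes *Pmepa1* and *Tgfbi* and the corepressor *Ski* had higher levels than any of the 5 SMADs. *Pmepa1* was highest, at 112.4 ± 12.2 TPM (SD, n = 3) in *Col3a1*+/G182R and 145.0 ± 17 TPM (SD, n = 4) in *Col3a1*+/+. *Tgfbi* followed at 68.2 ± 10.6 TPM in *Col3a1*+/G182R and 60.3 ± 29.8 TPM in *Col3a1*+/+, and *Ski* at 50.3 ± 3.76 TPM in *Col3a1*+/G182R and 51.8 ± 4.44 TPM in *Col3a1*+/+. In *Col3a1*+/G182R the libraries of these 3 genes did not overlap one another, while in *Col3a1*+/+ those of *Tgfbi* and *Ski* did. Both groups had *Smad4*, the partner shared by all receptor-regulated SMADs, in the fourth place, with 22.3 ± 2.85 TPM in *Col3a1*+/G182R and 16.7 ± 3.54 TPM in *Col3a1*+/+. *Skil* came next at 19.9 ± 2.77 TPM in *Col3a1*+/G182R and 14.9 ± 8.13 TPM in *Col3a1*+/+, and its libraries overlapped those of *Smad4* in both genotypes. *Smad3* was the lowest in both, at 9.6 ± 2.16 TPM in *Col3a1*+/G182R and 8.94 ± 0.847 TPM in *Col3a1*+/+. *Smad2*, the other TGF-β-regulated SMAD, had more TPM than *Smad3* on average, with 14.4 ± 2.24 in *Col3a1*+/G182R and 10.1 ± 3.1 in *Col3a1*+/+. Among *Smad2*, *Smad6*, *Smad7* and *Smad3*, every neighbouring pair in the order overlapped in both genotypes. Compared within each library, *Smad2* was above *Smad7* in 3 of 3 *Col3a1*+/G182R mice, while *Smad7* was above *Smad2* in 2 of 4 *Col3a1*+/+ mice. No other neighbouring pair of these 4 kept its order in every mouse of a genotype, so their full order is not fixed by the data.

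**Figure D1:**
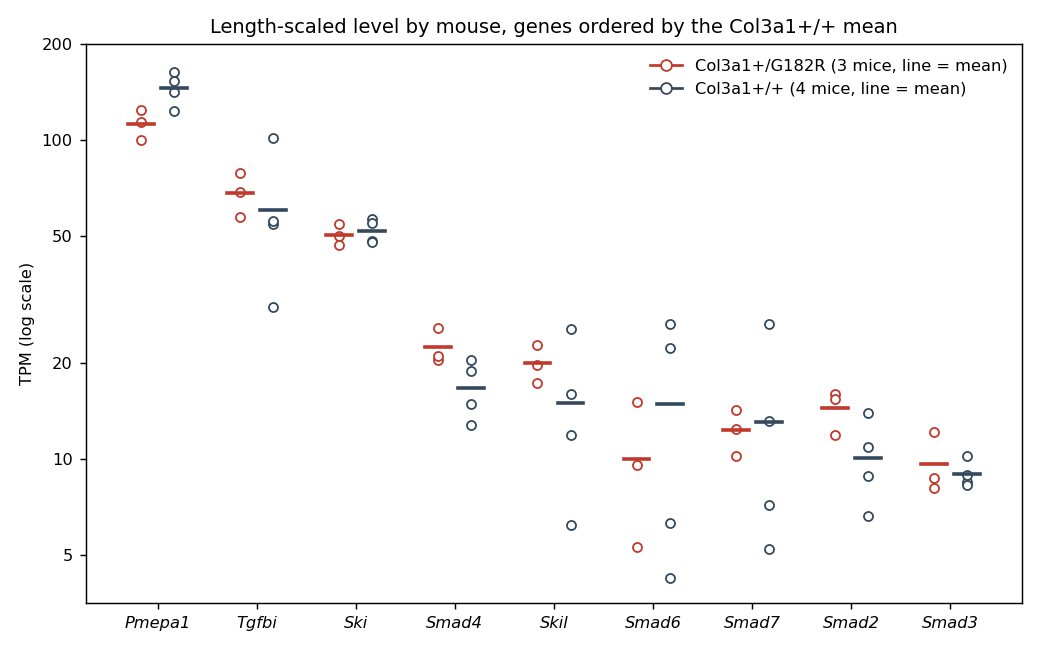
Level of the 9 genes in TPM on a log axis, with 1 open circle per mouse and a line at the group mean, *Col3a1*+/G182R (red, n = 3) left of *Col3a1*+/+ (dark, n = 4). *Pmepa1*, *Tgfbi* and *Ski* lie above the 5 SMADs and *Skil* in mean level, and *Smad6*, *Smad7* and *Skil* spread widely in *Col3a1*+/+.

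Log2 fold changes are given as *Col3a1*+/G182R over *Col3a1*+/+. None of the 9 genes passed edgeR's quasi-likelihood test between genotypes (adjusted p from 0.158 for *Pmepa1* to 0.937 for *Ski*). Few genes passed at all, 6 of 15688 (0.0382%). At an unadjusted p under 0.05 there were 2 of the 9, *Pmepa1* and *Smad4*, against 3194 of all genes tested (20.4%). These were also the only members whose CPM did not overlap between genotypes, against 20.9% of all genes tested. DESeq2 called 1 of the 9, *Pmepa1*, and 4.61% of all genes tested, with 2.61% of all genes called lower, as *Pmepa1* was. The shares of members with a small unadjusted p or without overlap were thus near those of all genes. The median log2 fold change of the 9 was 0.04, with 5 higher and 4 lower in *Col3a1*+/G182R, and that of all genes tested was 0.01.

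**Figure D2:**
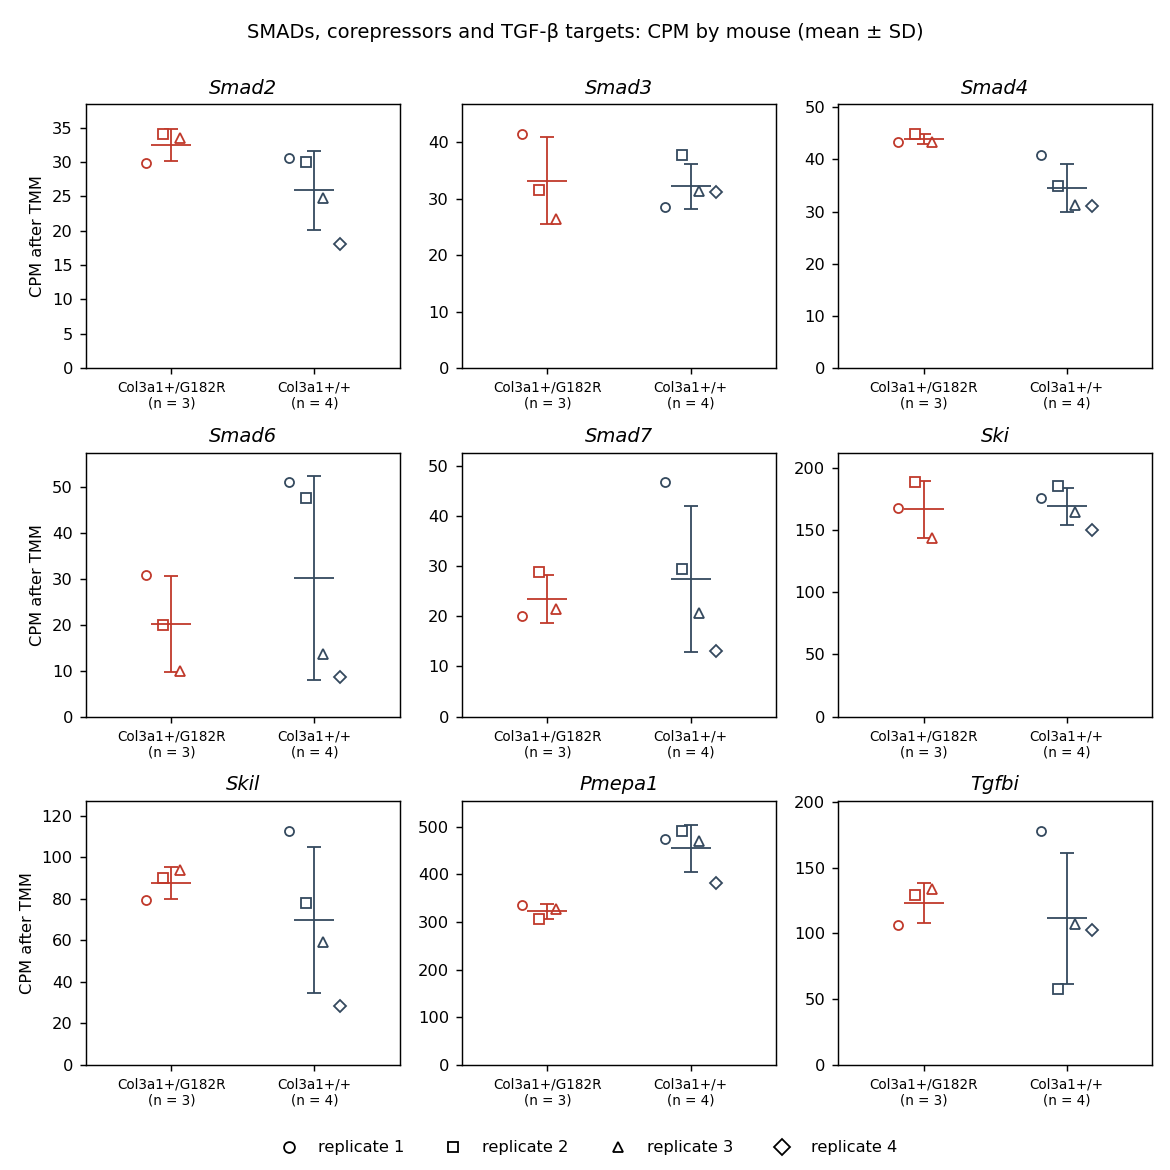
CPM after TMM of each gene by mouse, *Col3a1*+/G182R (red, 3 mice) left of *Col3a1*+/+ (dark, 4 mice), with bars at the mean ± SD. Each replicate number has 1 symbol, and the labels do not say whether equal numbers pair mice across genotypes. All axes start at 0. *Smad4* lies higher and *Pmepa1* lower in all 3 *Col3a1*+/G182R mice, and in the other 7 genes the genotypes overlap.

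*Pmepa1* encodes a membrane protein that binds SMAD2 and SMAD3 and keeps them from the receptor, and it is induced by TGF-β itself. The gene (ENSMUSG00000038400) lies on the minus strand of chromosome 2 of GRCm38, from 173224458 to 173276533. It had 336.6, 305.6 and 326.3 CPM in the 3 *Col3a1*+/G182R mice, against 473.3, 491.9, 470.7 and 381.2 CPM in the 4 *Col3a1*+/+ mice. Every *Col3a1*+/G182R value was below every *Col3a1*+/+ value, and *Col3a1*+/+ replicate 4 was the nearest. *Col3a1*+/G182R had 0.711 of the *Col3a1*+/+ level, or -0.49 on the log2 scale (standard error 0.13, 95% interval -0.78 to -0.20, edgeR adjusted p = 0.158). The call depended on the test. DESeq2 gave an adjusted p of 0.00862 and limma with library quality weights 0.029 (3.48% of all genes called), whereas limma-voom without weights gave 0.161 (0.0701% called). With 1 library left out, DESeq2 passed *Pmepa1* in 4 of 7 fits (adjusted p from 1.56e-05 to 0.216), and not without *Col3a1*+/+ replicate 3 (0.108), *Col3a1*+/G182R replicate 2 (0.216) or *Col3a1*+/G182R replicate 3 (0.137). The direction held in all 23 alternative fits, with log2 fold changes from -0.58 to -0.41. These fits reuse the same mice, and without overlap in CPM a left-out library could hardly turn the sign.

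Transcript length moved with the same gene. The mean transcript length that RSEM assigns to a gene weights each annotated transcript by its estimated share, so it moves when the mix of transcripts does. For *Pmepa1* it was 4259, 4293 and 4120 bases in *Col3a1*+/G182R, against 4408, 4431, 4467 and 4500 bases in *Col3a1*+/+, again without overlap. The annotation holds 3 *Pmepa1* transcripts, of 4538, 720 and 600 bases, so a lower mean length stands for a larger estimated share of the short transcripts. In TPM, which divides by that length, the genotypes overlapped, with 113.5, 99.8 and 124.0 in *Col3a1*+/G182R against 162.8, 152.6, 141.7 and 123.0 in *Col3a1*+/+. With effective lengths as an offset the log2 fold change of *Pmepa1* was -0.41 in edgeR and in DESeq2, and the adjusted p in DESeq2 was 0.06.

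*Skil* and *Ski* were the other members whose mean transcript length did not overlap between genotypes, which makes 3 of 9 against 13.3% of all genes tested. Of the 15688 genes tested, 12450 had more than 1 length over the libraries. The rest, *Smad6* among them, could not differ in length, so the 13.3% understates the share among genes that could. *Skil* was shorter in *Col3a1*+/G182R, as were 5.9% of all genes tested, with 6509, 6387 and 6364 bases in *Col3a1*+/G182R against 6641, 6629, 6613 and 6637 bases in *Col3a1*+/+. *Ski* was longer, as were 7.39% of all genes tested, with 4840, 4856 and 4775 bases in *Col3a1*+/G182R against 4724, 4657, 4598 and 4569 bases in *Col3a1*+/+. The annotated transcripts run from 716 to 6717 bases for *Skil* (6 transcripts) and from 4521 to 5522 bases for *Ski* (3 transcripts). RSEM also takes from each gene length a number of bases that depends on the length of the fragments, and this gap was 121.0 to 130.6 bases in *Col3a1*+/G182R and 113.7 to 120.0 bases in *Col3a1*+/+, without overlap. Its part in the assigned lengths was not tested, and neither were the lengths themselves.

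**Figure D3:**
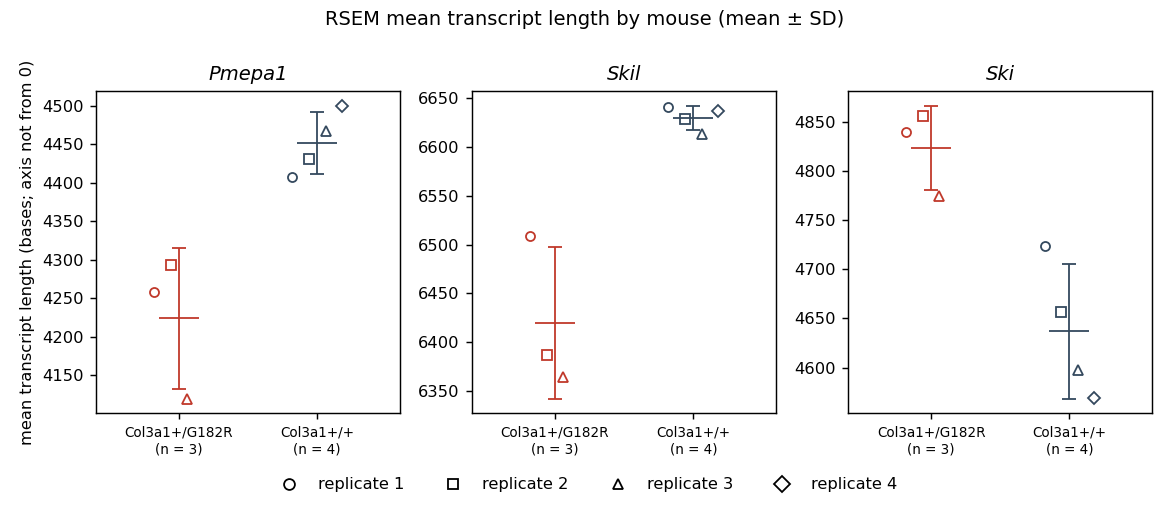
Mean transcript length in bases assigned by RSEM to *Pmepa1*, *Skil* and *Ski* by mouse, with bars at the mean ± SD, *Col3a1*+/G182R (red, n = 3) left of *Col3a1*+/+ (dark, n = 4). The axes do not start at 0. *Pmepa1* and *Skil* are shorter and *Ski* is longer in every *Col3a1*+/G182R mouse than in any *Col3a1*+/+ mouse.

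*Smad4* was the transducer with the smallest p. It lies on the minus strand of chromosome 18, from 73639009 to 73703780 (ENSMUSG00000024515). *Smad4* had 43.3, 44.9 and 43.4 CPM in *Col3a1*+/G182R, against 40.8, 34.8, 31.3 and 31.1 CPM in *Col3a1*+/+. The *Col3a1*+/G182R mice lay within 1.04-fold of each other and above all *Col3a1*+/+ mice, of which replicate 1 was the nearest. *Smad4* was thus higher by 0.35 on the log2 scale (standard error 0.127, 95% interval 0.06 to 0.63, adjusted p = 0.19 in edgeR), and DESeq2 gave an adjusted p of 0.124. With 1 library left out, DESeq2 passed *Smad4* in 1 of 7 fits. That was without *Col3a1*+/+ replicate 1 (adjusted p = 0.0281), where 1860 of 15471 genes tested passed. In the other fits the DESeq2 adjusted p of *Smad4* was 0.206 to 0.455. In TPM the groups did not overlap either (18.9% of all genes tested did not, and *Smad4* alone of the 9), but the lowest *Col3a1*+/G182R mouse and the highest *Col3a1*+/+ mouse met at 20.4 TPM after rounding.

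*Smad2* and *Smad3*, the SMADs that the TGF-β receptor phosphorylates, did not pass the test. *Smad2* (plus strand of chromosome 18, from 76241580 to 76310963) had 29.8, 34.1 and 33.5 CPM in *Col3a1*+/G182R, against 30.5, 30.0, 24.8 and 18.1 CPM in *Col3a1*+/+. Only *Col3a1*+/G182R replicate 1 reached into the *Col3a1*+/+ range, and *Col3a1*+/+ replicate 4 was well below the rest. On the log2 scale *Smad2* was higher by 0.33 (standard error 0.179, adjusted p = 0.318 in edgeR), or 0.18 without *Col3a1*+/+ replicate 4. Its pattern over the 7 libraries was most like those of *Dnaja2*, an HSP70 cochaperone, and *Gstm5*, a glutathione transferase (root mean square differences of 0.0288 and 0.0392 in centred log2 CPM, where *Smad2* had an SD of 0.317). *Smad3* (minus strand of chromosome 9, from 63646767 to 63757994) had 41.5, 31.6 and 26.4 CPM in *Col3a1*+/G182R, against 28.5, 37.8, 31.4 and 31.1 CPM in *Col3a1*+/+. The 3 *Col3a1*+/G182R mice spread over the whole *Col3a1*+/+ range and beyond it on both sides. The log2 fold change was 0.04, and its 95% interval of -0.34 to 0.42 does not exclude differences of those sizes in either direction.

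The inhibitory SMADs varied far more between mice than between genotypes. *Smad6*, which acts mainly on the BMP branch and is known from endothelium, had 30.8, 19.9 and 9.93 CPM in *Col3a1*+/G182R, against 51.0, 47.5, 13.7 and 8.53 CPM in *Col3a1*+/+. The spread was 3.11-fold within *Col3a1*+/G182R and 5.99-fold within *Col3a1*+/+, the widest of the 9 genes in both groups, and 2 mice of *Col3a1*+/+ stood far above the other 2. For *Smad6* the log2 fold change was -0.58 with a 95% interval of -1.91 to 0.75 (standard error 0.597, edgeR adjusted p = 0.586), which does not exclude differences within those bounds. Summed endothelial markers (8 genes, all detected) were 217.5, 244.8 and 309.5 TPM in *Col3a1*+/G182R, against 256.6, 122.1, 216.8 and 290.0 TPM in *Col3a1*+/+. *Col3a1*+/+ replicate 2 had the lowest endothelial sum and the second highest *Smad6*. *Col3a1*+/+ replicate 1 had the highest *Smad6*, with an endothelial sum of 256.6 TPM. The part of endothelial cells in the level of *Smad6* was not tested. Over the 7 libraries, the patterns most like that of *Smad6* were those of the predicted gene *Gm30003* and of *Id2*, a BMP target that encodes an inhibitor of helix-loop-helix factors. Their root mean square differences from it in centred log2 CPM were 0.34 and 0.37, where *Smad6* itself had an SD of 1.04.

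*Smad7*, which recruits ubiquitin ligases to the TGF-β receptor, had 20.1, 28.9 and 21.5 CPM in *Col3a1*+/G182R, against 46.8, 29.4, 20.6 and 13.1 CPM in *Col3a1*+/+. All 3 *Col3a1*+/G182R mice lay inside the *Col3a1*+/+ range, which was 3.58-fold wide. Its log2 fold change was -0.23 (standard error 0.357, adjusted p = 0.732 in edgeR), and it was 0.16 without *Col3a1*+/+ replicate 1, the mouse with the highest value. *Ndst3* (0.169) and *Aass* (0.199) were the genes most like it by the same measure, less close to *Smad7* (SD 0.574) than the neighbours of *Smad2* were. The length assigned to *Smad7* also varied among *Col3a1*+/+ mice, with 2863, 2889 and 2762 bases in *Col3a1*+/G182R against 2717, 3134, 3886 and 3668 bases in *Col3a1*+/+. *Smad6* (minus strand of chromosome 9, from 63953076 to 64022059) was assigned 2971 bases, the length of its longest transcript, in all 7 libraries. *Smad7* lies on the plus strand of chromosome 18, from 75367529 to 75395935.

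The promoters of *Smad6* and *Tgfbi* are shown because they are the members with a promoter sequence at hand that hold SMAD-type motifs beside the GC-rich one. The windows run from 250 bases before to 50 bases after the start, from RefSeq on GRCm38.p6, and 4 of the 9 members matched (*Ski*, *Smad3*, *Smad6* and *Tgfbi*). Capitals mark GTCTAGAC, the palindrome that SMAD3 and SMAD4 bind, the shorter SMAD-binding element CAGAC, and the GC-rich SMAD site GGCGC, with their reverse complements. Both strands were searched, the palindrome holds neither of the other motifs, and GC-rich matches on opposite strands were counted apart where they overlap.

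*Smad6*, chr9:64022010-64022309, minus strand, written 5′ to 3′ as transcribed: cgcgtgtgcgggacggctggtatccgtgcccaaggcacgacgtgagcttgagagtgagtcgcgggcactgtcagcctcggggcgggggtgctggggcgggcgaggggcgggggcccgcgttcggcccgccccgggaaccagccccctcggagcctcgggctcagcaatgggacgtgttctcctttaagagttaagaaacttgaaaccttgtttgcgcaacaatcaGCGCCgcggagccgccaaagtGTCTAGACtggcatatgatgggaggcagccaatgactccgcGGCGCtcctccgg

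*Tgfbi*, chr13:56609336-56609635, plus strand: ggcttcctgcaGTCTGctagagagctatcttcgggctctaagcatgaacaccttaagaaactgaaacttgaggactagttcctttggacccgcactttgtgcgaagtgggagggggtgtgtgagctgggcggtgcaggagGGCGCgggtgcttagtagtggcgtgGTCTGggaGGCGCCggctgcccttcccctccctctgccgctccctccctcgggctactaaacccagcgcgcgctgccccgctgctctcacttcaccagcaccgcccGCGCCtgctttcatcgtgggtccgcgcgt

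The *Smad6* window holds 1 GTCTAGAC, which 0.213% of 32851 promoters in the table hold, and 2 GGCGC, which 36.9% hold at least once. The *Tgfbi* window holds 2 CAGAC, as 49.6% of all promoters do at least once, and 4 GGCGC. *Ski* has 7 GGCGC and neither of the others, and *Smad3* has none of the 3. A match is a run of letters and not a measured site.

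*Ski* was the steadiest of the 9 genes, with an SD of 0.148 in log2 CPM over the 7 mice. It lies on the minus strand of chromosome 4, from 155154075 to 155222592, and encodes a corepressor that binds SMAD2, SMAD3 and SMAD4. *Ski* had 168.3, 188.9 and 143.6 CPM in *Col3a1*+/G182R, against 176.5, 185.6, 165.1 and 150.6 CPM in *Col3a1*+/+. The genotypes covered the same range. They differed by -0.02 on the log2 scale (standard error 0.135, adjusted p = 0.937 in edgeR), and the 95% interval of -0.32 to 0.28 was among the narrower of the members.

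*Skil*, its relative and a fast TGF-β target, behaved otherwise. *Skil* (plus strand of chromosome 3, from 31095058 to 31122577) had 79.2, 89.9 and 93.7 CPM in *Col3a1*+/G182R, against 112.8, 77.7, 59.3 and 28.6 CPM in *Col3a1*+/+. The *Col3a1*+/G182R mice agreed within 1.18-fold, and the *Col3a1*+/+ mice covered 3.95-fold, on both sides of them. The mean of *Skil* was higher by 0.33 on the log2 scale (standard error 0.351, 95% interval -0.46 to 1.12, edgeR adjusted p = 0.601), or by 0.06 without *Col3a1*+/+ replicate 4 and 0.67 without *Col3a1*+/+ replicate 1. The 2 genes most like *Skil* over the 7 libraries were *Crim1*, a membrane protein that binds BMPs, at a root mean square difference of 0.0871, and *Lox*, the lysyl oxidase that crosslinks collagen and elastin, at 0.135. *Skil* itself had an SD of 0.651 in log2 CPM.

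The spread inside *Col3a1*+/+ had a common shape. In 5 of the 9 genes (*Smad2*, *Smad4*, *Smad6*, *Smad7* and *Skil*) replicate 1 was the highest and replicate 4 the lowest of the *Col3a1*+/+ mice, against 16.9% of all genes tested. For *Smad4* and *Skil* the values were 40.8 and 112.8 CPM in replicate 1 and 31.1 and 28.6 CPM in replicate 4. *Smad4* was nearly as low in *Col3a1*+/+ replicate 3, at 31.3 CPM. In the same 5 genes *Col3a1*+/+ replicate 4 was the lowest of all 7 mice, against 29.9% of all genes tested. Replicate 1 was the deepest and replicate 4 the shallowest *Col3a1*+/+ library, and the part of depth or of the library in this shape was not tested.

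*Tgfbi* encodes a secreted matrix protein that TGF-β induces and that binds collagens and integrins. It lies on the plus strand of chromosome 13, from 56609523 to 56639562. *Tgfbi* had 106.1, 129.5 and 134.0 CPM in *Col3a1*+/G182R, against 178.2, 57.6, 107.5 and 102.6 CPM in *Col3a1*+/+. Both the highest and the lowest mouse were *Col3a1*+/+, replicates 1 and 2. The mean of *Tgfbi* was higher by 0.14 on the log2 scale (standard error 0.302, 95% interval -0.53 to 0.82, edgeR adjusted p = 0.804), or 0.47 without *Col3a1*+/+ replicate 1 and -0.07 without replicate 2. *Tgfbi* moved with fibroblast markers from mouse to mouse. The summed level of 8 fibroblast markers, all detected, was 1760.7, 1979.7 and 2238.1 TPM in *Col3a1*+/G182R, against 2335.4, 975.4, 1229.6 and 1211.4 TPM in *Col3a1*+/+, and *Tgfbi* had 57.4, 68.6 and 78.6 TPM in *Col3a1*+/G182R, against 101.3, 29.8, 54.4 and 55.8 TPM in *Col3a1*+/+. The 7 mice fell in the same order in both, apart from *Col3a1*+/+ replicates 3 and 4, which were close in each. Of all genes tested, the 2 nearest to *Tgfbi* were *Pi16* (root mean square difference 0.0873) and *Serpinf1* (0.0974), both among those 8 markers. All 8 fibroblast markers were higher in *Col3a1*+/G182R, with a median log2 fold change of 0.47 and none past edgeR's threshold, and their part in the level of *Tgfbi* was not tested.

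Markers of other cell types stood beside these values as follows. Summed macrophage markers were 155.6 to 444.1 TPM in *Col3a1*+/G182R and 116.0 to 188.4 TPM in *Col3a1*+/+ (8 of 8 higher), fat markers 3100.5 to 5777.1 TPM in *Col3a1*+/G182R and 2513.3 to 5293.7 TPM in *Col3a1*+/+ (7 of 8 higher), and red blood cell markers 696.8 to 1900.3 TPM in *Col3a1*+/G182R and 410.1 to 1057.8 TPM in *Col3a1*+/+ (5 of 5 higher). Summed markers of striated muscle did not overlap between genotypes, with cardiac muscle markers at 32.3 to 34.1 TPM in *Col3a1*+/G182R and 44.8 to 150.9 TPM in *Col3a1*+/+ (0 of 5 tested genes higher) and skeletal muscle markers at 8.57 to 13.2 TPM in *Col3a1*+/G182R and 15.4 to 24 TPM in *Col3a1*+/+ (0 of 3 tested genes higher). The part of any of these cell types in *Smad4* or *Pmepa1* was not tested. The smooth muscle sum overlapped between genotypes, at 26246.3, 25697.1 and 24536.7 TPM in *Col3a1*+/G182R against 29322.4, 21957.1, 24816.7 and 18007.9 TPM in *Col3a1*+/+. Of the 10 smooth muscle markers 3 were higher and 7 lower in *Col3a1*+/G182R, with a median log2 fold change of -0.04.

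**Figure D4:**
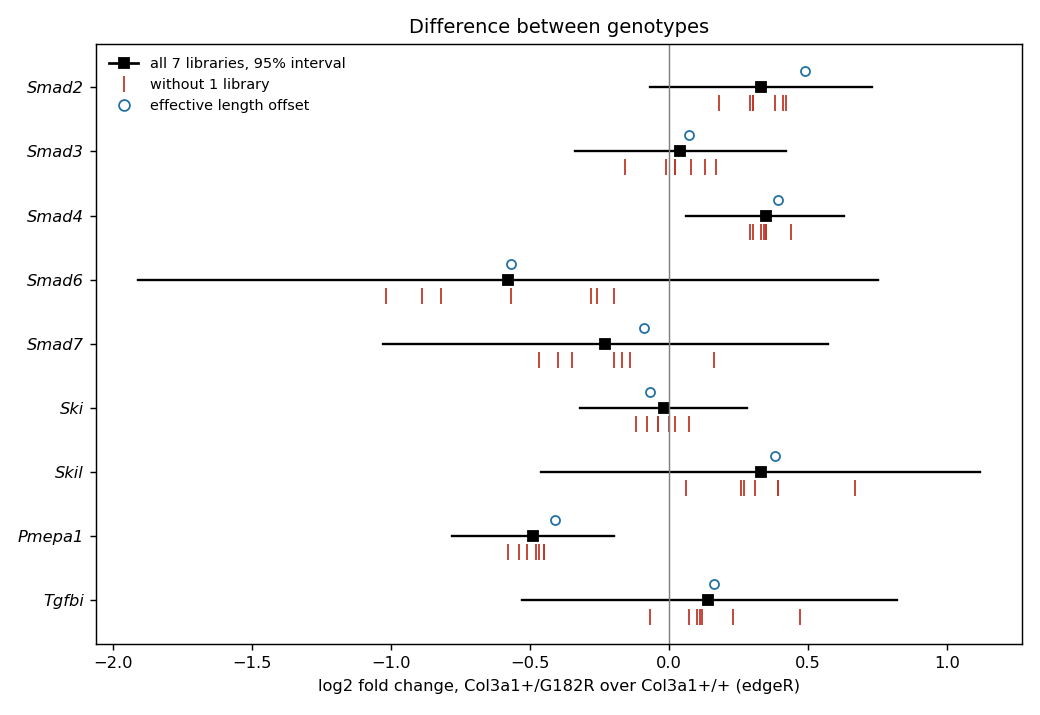
Log2 fold change of each gene, *Col3a1*+/G182R over *Col3a1*+/+, from edgeR, with the 95% interval (black), the values with 1 library left out (red ticks) and the value with effective lengths as an offset (blue circle). The intervals of *Smad4* and *Pmepa1* lie on 1 side of 0 before adjustment for multiple tests, and those of *Smad6*, *Smad7*, *Skil* and *Tgfbi* are wide.

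The rest of the pathway was read from lists of 104 further genes, of which 100 were tested. Of these, 59 were higher and 41 lower in *Col3a1*+/G182R with a median log2 fold change of 0.13. In edgeR 29 had an unadjusted p under 0.05 (21 higher, 8 lower). Of all genes tested 20.4% did (9.57% higher, 10.8% lower). DESeq2 called 5 of the 100 higher and 3 lower, against 4.61% of all genes tested in either direction and 2.61% lower. Only *Otud1* passed edgeR's test. The lists were chosen with earlier results of these data known, so its passing is not independent evidence about the pathway. *Otud1*, a deubiquitinase known from human cells to act on SMAD7, had 69.0, 62.9 and 66.0 CPM in *Col3a1*+/G182R, against 29.0, 24.9, 31.8 and 22.5 CPM in *Col3a1*+/+. *Otud1* rose by 1.29 on the log2 scale (standard error 0.138, adjusted p = 0.0373 in edgeR), while *Smad7* itself showed no difference past its error. With at least 10 counts asked of every library the edgeR adjusted p of *Otud1* was 0.0503. With a library left out it ran from 0.0195 to 0.135 and passed only without *Col3a1*+/+ replicate 1 or 4, while DESeq2 passed *Otud1* in 7 of 7 such fits.

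Among the ubiquitin enzymes and phosphatases of SMADs (17 tested, 11 higher, 6 lower), the ligases that pair with SMAD7 did not move one way. *Smurf2* had 99.2, 92.0 and 100.2 CPM in *Col3a1*+/G182R, against 83.2, 71.1, 61.7 and 40.5 CPM in *Col3a1*+/+, a log2 fold change of 0.60 (edgeR adjusted p = 0.179), and *Smurf1* had a log2 fold change of 0.19 (0.481). *Wwp1* was at 0.58 (0.170). *Wwp2* was on the other side, with 662.5, 563.8 and 615.7 CPM in *Col3a1*+/G182R against 963.8, 1106.5, 1486.1 and 1344.5 CPM in *Col3a1*+/+, a ratio of 0.501 (edgeR adjusted p = 0.0907, DESeq2 adjusted p = 1.09e-05).

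*Ldlrad4*, a relative of *Pmepa1* that also binds SMAD2 and SMAD3, lay on the other side of 0. *Ldlrad4* had 58.0, 52.8 and 48.8 CPM in *Col3a1*+/G182R, against 40.9, 33.9, 31.8 and 25.7 CPM in *Col3a1*+/+, a log2 fold change of 0.68 (edgeR adjusted p = 0.146, DESeq2 adjusted p = 0.0106). The list of SMAD cofactors and adaptors, 18 tested with *Ldlrad4* among them, had 13 higher and 5 lower and a median of 0.27. In it *Zeb2*, a SMAD-binding repressor, was at 0.71 (edgeR adjusted p = 0.144, DESeq2 adjusted p = 0.00829), and the acetyltransferase *Ep300* at 0.59 (0.173 in edgeR, 0.0795 in DESeq2). *Bambi*, a decoy receptor without a kinase, had 45.0, 43.7 and 48.1 CPM in *Col3a1*+/G182R, against 27.0, 24.9, 29.0 and 27.9 CPM in *Col3a1*+/+, without overlap (log2 fold change 0.74, edgeR adjusted p = 0.0621, DESeq2 adjusted p = 2.24e-06). In the same list of ligands, receptors and latency proteins (17 tested, 12 higher, 5 lower), *Itgb8*, a subunit of an integrin that frees TGF-β, was at 1.41 (edgeR adjusted p = 0.138, DESeq2 adjusted p = 0.00223). *Itgb8* had a low level, with 4.73 to 6.29 CPM in *Col3a1*+/G182R and 1.22 to 2.76 CPM in *Col3a1*+/+. The latency protein *Ltbp2* was at -0.46 (0.168 in edgeR, 0.0448 in DESeq2).

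The 38 other TGF-β target genes tested had 18 higher and 20 lower, a median log2 fold change of -0.06 and none past the threshold in edgeR or DESeq2. *Ccn2*, connective tissue growth factor, had 1328.1, 1588.0 and 3884.0 CPM in *Col3a1*+/G182R, against 1389.1, 638.6, 2292.9 and 1490.3 CPM in *Col3a1*+/+ (log2 fold change 0.64, adjusted p = 0.415 in edgeR). It was highest of all mice in *Col3a1*+/G182R replicate 3, in which *Pmepa1* had 326.3 CPM. *Fstl3* was at -0.60 (0.168), *Sphk1* at -0.71 (0.170) and *Nedd9* at 0.58 (0.179), on both sides of 0.

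On the BMP side, *Smad1*, *Smad5* and *Smad9* were at log2 fold changes of 0.40 (edgeR adjusted p = 0.170), 0.22 (0.357) and 0.15 (0.828). *Smad1* had 23.8, 25.6 and 29.9 CPM in *Col3a1*+/G182R, against 20.6, 21.4, 18.3 and 19.9 CPM in *Col3a1*+/+, without overlap. The 7 BMP target genes tested had 2 higher and 5 lower with a median of -0.17. *Atoh8*, a helix-loop-helix factor, was the lowest of them, with 50.9, 43.4 and 31.6 CPM in *Col3a1*+/G182R against 103.1, 105.5, 64.7 and 50.8 CPM in *Col3a1*+/+ (log2 fold change -0.95, edgeR adjusted p = 0.163, DESeq2 adjusted p = 0.0247). Like *Smad6*, *Atoh8* was higher in *Col3a1*+/+ replicates 1 and 2 than in any other mouse. *Msx1* was at 0.22 (0.599) and *Hey1* at -0.20 (0.628).

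**Figure D5:**
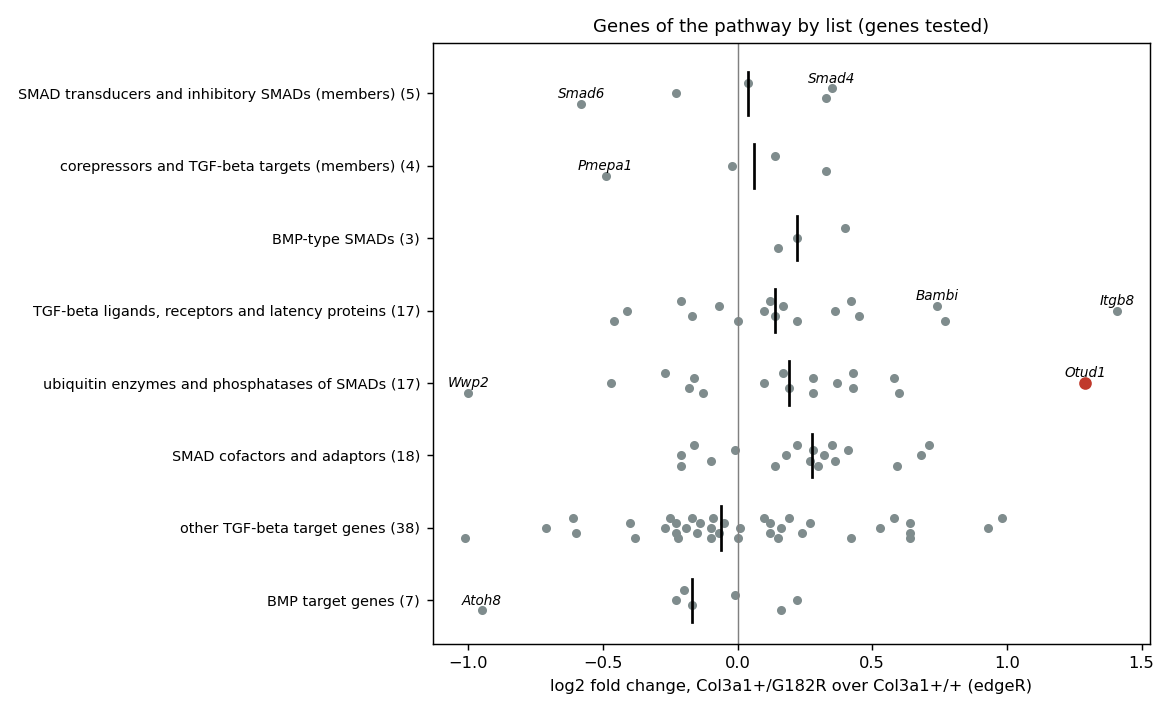
Log2 fold change, *Col3a1*+/G182R over *Col3a1*+/+, of every tested gene by list (how many in brackets), with the list's median as a vertical line and the gene past edgeR's threshold in red. Only *Otud1* is red, and each list of 4 or more genes has members on both sides of 0.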

How the data were processed

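RNA-seq was measured in thoracic aortas of 7 mice, 3 *Col3a1*+/G182R and 4 *Col3a1*+/+, grouped by the genotype in the labels. The authors deposited RSEM expected counts. The submitters' processing notes name RSEM 1.3.1, STAR 2.7.6a and GRCm38 (the study's methods name featureCounts). The TPM values deposited in the same files are RSEM's within-library estimates and entered no test, and the deposited gene lengths are RSEM's means over transcripts. Symbols came from GENCODE M21 (55141 of 55487 identifiers).

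Expected counts were rounded to whole numbers, filtered with filterByExpr (minimum count 10, 15688 genes kept), TMM-normalized and compared with edgeR 4.0.16's quasi-likelihood test in R 4.3.3, two-sided, with genotype as the only term and Benjamini-Hochberg adjustment over all genes (threshold 0.05). Standard errors came from the fold change and its F statistic. Alternatives were DESeq2 1.42.0, limma-voom (limma 3.58.1) with and without library quality weights, RLE factors, other filters, effective length offsets, a replicate block and leaving out each library. DESeq2 with length offsets and with 1 library left out were added after the data were seen.

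The 9 members and all lists were chosen with earlier results of these data known. Named besides them are the genes past the threshold and the 3 with the smallest p in each list, 6 genes chosen by name (*Smurf1*, *Smurf2*, *Otud1*, *Wwp2*, *Ccn2* and 1 that is not reported here) and, for members with an SD of at least 0.3 in log2 CPM, the 2 genes of nearest pattern (log2 CPM with a prior count of 2, centred per gene). Depth was 18820015 to 23953746 counts in *Col3a1*+/G182R and 13693861 to 21634680 in *Col3a1*+/+.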

Additional observations from a re-analysis of the deposited data

Results flagged for a closer look

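Of 93 sets of 4 *Col3a1*+/+ values checked for a library far from the others, 2 passed the limit of Dixon's test for 4 libraries, where chance gives about 1 in 20. *Fstl3*, a TGF-β target that encodes a follistatin-like binder of activins, had 220.7 CPM in *Col3a1*+/+ replicate 3 and 139.3 to 150.2 CPM in the other *Col3a1*+/+ mice. The gap to the nearest mouse was 0.866 of the range. The mean transcript length assigned to *Smad1* was 2724.8 bases in *Col3a1*+/+ replicate 4 and 3079.8 to 3095.5 bases in the other *Col3a1*+/+ mice, with a gap of 0.958 of the range. None of the *Col3a1*+/+ CPM values or lengths of the 9 members was set apart in this way. The lengths of *Smad3* and *Smad6* were equal in all *Col3a1*+/+ libraries, so they could not be. *Col3a1*+/G182R values were not among the sets checked. There, *Smad3* was assigned 4914 bases in replicate 1 and 5090 bases in replicates 2 and 3, as in *Col3a1*+/+.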

How the results depend on the processing

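No member passed the threshold with edgeR under any filter, scaling, length offset, block or left-out library. The count of members moved with the test, to 1 (*Pmepa1*) in DESeq2 and 1 (*Pmepa1*) in limma with library quality weights. With DESeq2 and a library left out it ran from 0 to 2, the highest without *Col3a1*+/+ replicate 1 (*Pmepa1* and *Smad4*). The count over all genes, 6 in edgeR, was 723 in DESeq2, 11 in limma-voom, 546 with library quality weights, 353 without a low-count filter, 0 where each library had to reach 10 counts (3046 genes had an unadjusted p under 0.05 there), 14 with the length offset in edgeR and 900 with it in DESeq2. With a library left out it was 0 to 183 in edgeR. In DESeq2 it was 1860, 716, 168 and 690 without *Col3a1*+/+ replicates 1, 2, 3 and 4, and 498, 120 and 124 without *Col3a1*+/G182R replicates 1, 2 and 3. Without *Col3a1*+/+ replicate 1, *Bambi*, *Wwp2*, *Zeb2*, *Ldlrad4* and *Ep300* passed in edgeR (adjusted p from 0.0332 to 0.0481). That was the fit in which 183 of all genes tested passed. *Bambi* also passed in edgeR without *Col3a1*+/+ replicate 4 (adjusted p = 0.0425), where 32 of all genes tested did. The cause of these shifts was not tested.

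Some directions turned with a library. Leaving out *Col3a1*+/+ replicate 1 gave -0.01 for *Smad3* and 0.16 for *Smad7*, and leaving out *Col3a1*+/G182R replicate 1 gave -0.16 for *Smad3*. *Tgfbi* was at -0.07 (edgeR) and -0.08 (DESeq2) without *Col3a1*+/+ replicate 2, and *Ski* at 0.02 without *Col3a1*+/+ replicate 2, 0.07 without *Col3a1*+/G182R replicate 3 and 0.01 with quality weights. *Smad9* was at -0.07 without *Col3a1*+/+ replicate 4 and at -0.15 (edgeR) or -0.14 (DESeq2) without *Col3a1*+/G182R replicate 1, and *Ccn2* at -0.0045 without *Col3a1*+/G182R replicate 3. With a library left out, log2 fold changes ran from 0.18 to 0.42 for *Smad2*, -1.02 to -0.20 for *Smad6*, 0.06 to 0.67 for *Skil*, 0.29 to 0.44 for *Smad4*, -0.16 to 0.17 for *Smad3*, -0.47 to 0.16 for *Smad7*, -0.12 to 0.07 for *Ski*, -0.07 to 0.47 for *Tgfbi*, -0.15 to 0.44 for *Smad9*, -0.0045 to 0.94 for *Ccn2* and -0.58 to -0.45 for *Pmepa1* in edgeR.

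Libraries with equal replicate numbers were barely correlated in their deviations from the genotype mean (correlations of -0.0469, 0.0153 and 0.0777). The labels do not say whether equal numbers mark a shared litter or batch, which these correlations cannot settle. With the replicate number as a block 46 genes passed, 0 of them members, *Smad9* was at -0.06 and *Atoh8* passed (-1.11, edgeR adjusted p = 0.0301). *Smad6* was at -0.83 with the block (edgeR adjusted p = 0.118) and at -0.89 without *Col3a1*+/+ replicate 4 (edgeR adjusted p = 0.325). *Col3a1*+/+ replicate 4 has no counterpart and adds nothing to the contrast in the fit with the block.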
